A study of Mus musculus with 6 samples.

Results

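The 9 genes described here, *Cd14*, *Fcgr1*, *Adgre1*, *Cx3cr1*, *Ccr2*, *C1qa*, *C1qb*, *C1qc* and *Vcan*, are commonly used to recognise monocytes and macrophages. They were chosen by symbol, by summing the Salmon read estimates of every transcript that the GENCODE M21 annotation assigns to them, and they are 9 of 53458 genes in the quantification. RNA-seq had been carried out on acute myeloid leukemia (AML) blasts from bone marrow of 3 Cebpa-/p30 Tet2+/+ mice (mice 19, 23 and 24) and 3 Cebpa-/p30 Tet2-/- mice (mice 5, 7 and 8), with 1 library per mouse, to ask what TET2 deficiency changes in AML driven by the p30 isoform of CEBPA. Both genotypes were C57BL/6 and carried a p30 allele and a deleted allele of *Cebpa*, so neither keeps full-length CEBPA, a transcription factor needed for the common progenitor of granulocytes and monocytes, and the genotypes differ in the state of *Tet2*.

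The blasts arose in lethally irradiated adult female C57BL/6J.SJL recipients of donor marrow. The conditional alleles were deleted after engraftment through Mx1-Cre, an interferon-inducible Cre that was switched on by poly(I:C) and is not restricted to blood cells. Marrow was frozen when the recipients became moribund, and live CD45.2+ cells without CD3, B220 and Ter119 were sorted. This gate takes out T cells, B cells, erythroid cells and the CD45.1 cells of the host, but it contains no marker that would set monocytes, macrophages or neutrophils of donor origin apart from blasts. In such bulk RNA, fewer cells of a type and less RNA per cell cannot be told apart. Since recipients were taken when moribund and not at a fixed time, time from deletion to collection and age at collection can differ between the genotypes and cannot be told apart from *Tet2* here. Each p-value below is set against the spread between these 6 recipients, which edgeR moderates with that of all genes. The study gave each donor's marrow to several recipients, and the labels name no donor, so recipients of a genotype may share a donor.

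Monocytes arise in the bone marrow from myeloid progenitors and circulate as classical, Ly6C-high cells, which enter inflamed tissue, and as non-classical, patrolling cells. CCR2 and CX3CR1 are the chemokine receptors that tell these subsets apart, with CCR2 high on classical and CX3CR1 high on non-classical cells. Macrophages of tissues, including those of the marrow, are recognised by the surface protein F4/80 and often make complement C1q, the starter of the classical complement pathway. Myelomonocytic leukemias can express the same genes, so their RNA does not by itself name the cell it came from.

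Promoters are shown for 3 genes, chosen after the values had been seen: *C1qb* and *Fcgr1*, whose levels followed each other closely over the mice, and *Vcan*, whose level varied most. Each is the 250 bases before the RefSeq transcription start on GRCm38.p6, read 5′ to 3′ on the minus strand, on which all 3 genes lie. Capitals mark CpG, the dinucleotide whose methylated cytosine TET enzymes oxidise, and GAGGAA or its reverse complement TTCCTC, a core sequence bound by the myeloid factor PU.1. They span chr4:136886201-136886450 for *C1qb*, chr3:96293970-96294219 for *Fcgr1* and chr13:89742513-89742762 for *Vcan*.
*C1qb*: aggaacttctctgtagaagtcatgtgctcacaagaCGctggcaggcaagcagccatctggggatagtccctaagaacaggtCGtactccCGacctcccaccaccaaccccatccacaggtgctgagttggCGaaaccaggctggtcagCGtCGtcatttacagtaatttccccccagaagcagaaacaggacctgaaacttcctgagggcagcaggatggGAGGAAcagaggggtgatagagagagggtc
*Fcgr1*: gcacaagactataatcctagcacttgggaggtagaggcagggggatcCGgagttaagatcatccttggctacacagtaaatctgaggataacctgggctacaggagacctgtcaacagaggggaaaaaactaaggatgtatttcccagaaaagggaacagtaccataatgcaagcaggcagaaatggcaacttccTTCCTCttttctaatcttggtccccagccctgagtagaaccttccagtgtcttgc
*Vcan*: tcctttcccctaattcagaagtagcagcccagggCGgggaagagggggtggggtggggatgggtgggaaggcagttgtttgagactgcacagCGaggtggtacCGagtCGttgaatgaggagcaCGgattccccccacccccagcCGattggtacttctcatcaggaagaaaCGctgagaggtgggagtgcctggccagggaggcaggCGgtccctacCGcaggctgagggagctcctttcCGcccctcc

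RefSeq promoters were found for 6 of the 9 genes, the other matches being *Cx3cr1*, *Ccr2* and *C1qc*. The window of *Vcan* holds 10 CpG, that of *C1qb* 6, *Cx3cr1* 4, *C1qc* 2, and *Fcgr1* and *Ccr2* 1 each, against a median of 6 over 32851 mouse promoters of the same length, of which 92.1% hold at least 1. GAGGAA, read on both strands, occurs once in the windows of *Fcgr1*, *C1qb* and *C1qc* and in 23.2% of all promoters. The spaced letters TTNNGNAA, a pair of C/EBP half-sites also read on both strands, occur once in the windows of *Ccr2* and *C1qc* and in 36.9% of all promoters. These are matches of letters, and neither methylation nor factor binding at these sites was analysed here.

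The genes lie on 6 chromosomes of GRCm38, and all are protein-coding. *C1qb* (ENSMUSG00000036905, from 136880129 to 136886187), *C1qc* (ENSMUSG00000036896, from 136889804 to 136893065) and *C1qa* (ENSMUSG00000036887, from 136895917 to 136898803) follow each other on the minus strand of chromosome 4. *Cx3cr1* (ENSMUSG00000052336, from 119901616 to 120069879, minus strand) and *Ccr2* (ENSMUSG00000049103, from 124101950 to 124113557, plus strand) are both on chromosome 9. *Cd14* (ENSMUSG00000051439) is on chromosome 18 from 36725067 to 36726798, *Fcgr1* (ENSMUSG00000015947) on chromosome 3 from 96282909 to 96293969, *Adgre1* (ENSMUSG00000004730) on chromosome 17 from 57358691 to 57483527 and *Vcan* (ENSMUSG00000021614) on chromosome 13 from 89655312 to 89742509. Among the exons of the 9 genes, only those of *Cx3cr1* share bases with another annotated gene, 78 bases or 1.73% with the antisense gene *Gm33858*, and the library kit does not mark strand. Taking 95% identity over 50% of a transcript as the limit, no transcript of the 9 had a near copy in another gene, so their reads are not split between copies.

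The libraries held between 13036643 and 32855343 estimated reads, with the most in mouse 5, of which 5.18% to 12.4% fell on the 10 most abundant genes. Levels are given as CPM (reads scaled to library size) after TMM normalization, and as TPM (also scaled to transcript length) where genes are compared with each other. *Tet2*, the targeted gene, had 73.6, 79.5 and 98.4 CPM in mice 19, 23 and 24 and 111, 79.4 and 96.7 CPM in mice 5, 7 and 8, and a count over the whole gene also covers exons outside a deletion, so it does not check the labels. Markers of lymphoid and erythroid cells were low, with summed levels of 23.8 to 85.8 CPM for 8 B cell genes in Cebpa-/p30 Tet2+/+ mice and 23.3 to 64.6 CPM in Cebpa-/p30 Tet2-/- mice. For 10 T and NK cell genes these ranges were 97.9 to 127 CPM and 64.5 to 139 CPM, of which *Nkg7*, a gene of NK cells and cytotoxic T cells, took 46.4 to 103 CPM over the 6 mice. The gate has no marker for NK cells. The NK cell genes *Klrb1c* and *Ncr1* of that list had 1.90 to 13.7 CPM and 0.488 to 5.35 CPM. Which cells the *Nkg7* reads came from was not tested. For 7 erythroid genes the sum was 145 CPM in mouse 19 and between 5.70 and 15.2 CPM in the other 5 mice.

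All 9 genes had enough reads to be tested, and none passed the test between the genotypes. With edgeR's quasi-likelihood test, adjusted by Benjamini-Hochberg over 22170 genes, 0 of the 9 had an adjusted p under 0.05, where 0.0451% of all tested genes were called, and their adjusted p lay between 0.743 and 0.957. At an unadjusted p under 0.05 the count was also 0, where 8.11% of all tested genes passed, and DESeq2 on the same counts called 0 of the 9 and 1.75% of all. In each of the 9 the mice of the genotypes overlapped, while 16.0% of the 13839 genes that averaged 1 CPM or more did not overlap. Exact two-sided permutation tests of the 6 log2 CPM values gave p between 0.2 and 1, where 3 mice against 3 cannot give less than 0.1.

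Within a genotype the spread of the 9 genes was wider in Cebpa-/p30 Tet2-/- mice for 8 of them, all but *Cd14*. This difference was not tested, and the share of all genes in which it holds was not counted. Among the Cebpa-/p30 Tet2-/- mice, mouse 7 was lowest in 8 of the 9 genes and mouse 8 highest in 8. The 8 wider spreads are therefore not 8 separate observations. From the lowest to the highest Cebpa-/p30 Tet2+/+ mouse, *Adgre1* differed by 1.94-fold, *Fcgr1* by 2.10-fold and *Vcan* by 21.7-fold, against 3.21-fold, 34.4-fold and 184-fold among Cebpa-/p30 Tet2-/- mice. With both genotypes pooled, the SD of log2 CPM within genotypes had a median of 1.72 over the 9 genes and of 0.36 over the 13839 genes. Other marker lists were also above that, with medians of 1.17 for macrophage, 1.26 for classical monocyte, 1.25 for neutrophil, 1.27 for B cell and 1.93 for erythroid genes. From the lowest to the highest of the 6 mice the levels of the 9 differed by a median of 20.7-fold, against 2.01-fold over the 13839 genes. Of the variance in log2 CPM over the 6 mice, the share between genotypes had a median of 2.41% for the 9 genes and 17.4% for the 13839 genes. The 9 genes were expressed at very unequal levels, and by mean TPM over the 6 mice, summed over all transcripts of a gene, the order was *Adgre1* at 113, *Ccr2* at 64.3, *Vcan* at 24.5, *C1qb* at 12.7, *Cx3cr1* at 10.2, *Cd14* at 8.62, *C1qc* at 6.74, *C1qa* at 6.40 and *Fcgr1* at 4.65. The TPM ranges over the mice of genes next to each other in that order overlapped in each case, from 51.3 to 201 for *Adgre1* and 7.82 to 145 for *Ccr2* at the top, to 0.976 to 14.3 for *C1qa* and 0.485 to 14.2 for *Fcgr1* at the bottom. The places of *Adgre1* and *Vcan* rest on short transcripts, since those under 500 bases held 65.0% of the TPM of *Adgre1* but 7.08% of its reads, and 69.2% of the TPM of *Vcan* but 1.67% of its reads. On the most-read transcript of each gene, mean TPM was 37.6 for *Ccr2*, 36.4 for *Adgre1* and 3.24 for *Vcan*, which then stood above *Fcgr1* alone.

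**Figure D1:**
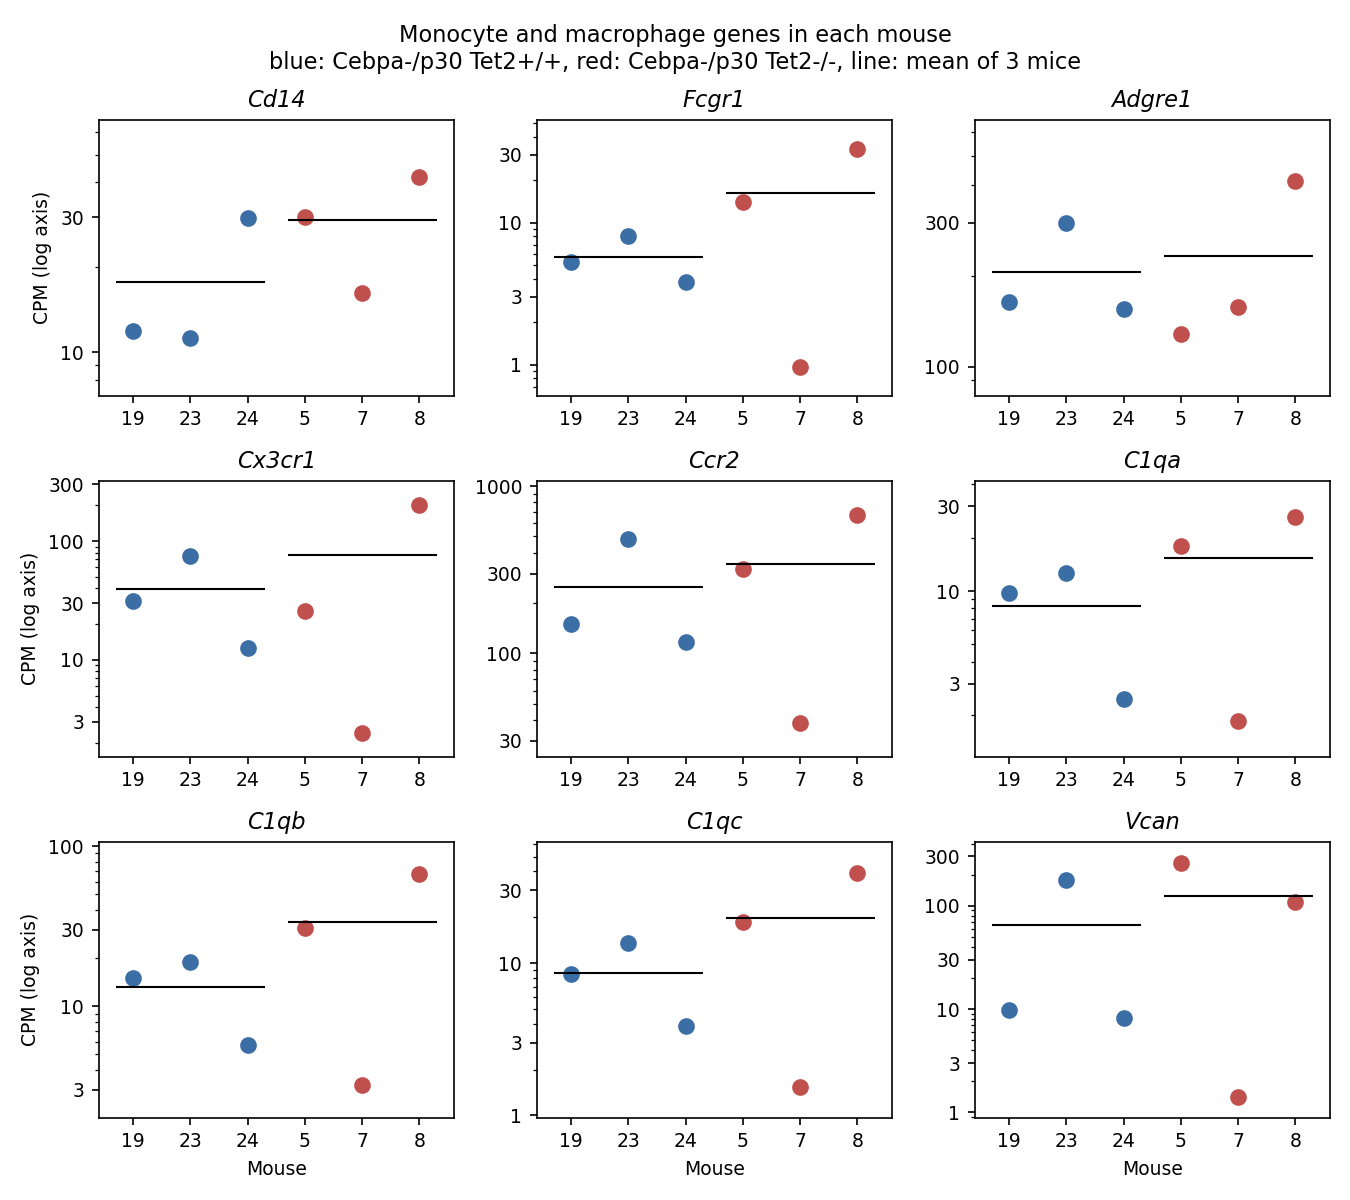
Level of each of the 9 genes in each mouse, in TMM-normalized CPM on a logarithmic axis whose range differs between panels. Each point is 1 mouse, blue for Cebpa-/p30 Tet2+/+ and red for Cebpa-/p30 Tet2-/-, and lines are means of 3 mice. The red points of mice 7 and 8 lie on either side of all 3 blue points in *Fcgr1*, *Cx3cr1*, *Ccr2*, *C1qa*, *C1qb* and *C1qc*.

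Among the receptors that sense microbes and antibodies, *Cd14* and *Fcgr1* were both low. *Cd14* encodes the co-receptor that hands lipopolysaccharide (LPS) to Toll-like receptor 4. Its levels were 11.9, 11.2 and 29.9 CPM in mice 19, 23 and 24 and 30.1, 16.3 and 41.5 CPM in mice 5, 7 and 8. Mice 24 and 5 were nearly level across the genotypes, and mouse 7 lay below mouse 24. The log2 fold change of *Cd14* was 0.73 (SE 0.49, 95% interval -0.41 to 1.87, adjusted p = 0.747 by edgeR and Benjamini-Hochberg). Of the variance of *Cd14* in log2 CPM, 29.3% lay between the genotypes, the largest share of the 9 genes. Only *Cd14*-201 of its 2 annotated transcripts was in the quantification.

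*Fcgr1* encodes CD64, the high-affinity receptor for IgG and a widely used macrophage marker. It was measured at 5.26, 7.98 and 3.80 CPM in mice 19, 23 and 24 and at 14.0, 0.964 and 33.2 CPM in mice 5, 7 and 8. The 3 Cebpa-/p30 Tet2+/+ mice thus lay close together and in the gap between mouse 7 below and mice 5 and 8 above. Mouse 7 had 15 reads of *Fcgr1* and mouse 8 had 611, a 34.4-fold difference in CPM within 1 genotype, against 2.10-fold among the Cebpa-/p30 Tet2+/+ mice. With a log2 fold change of 1.5 (SE 0.98, 95% interval -0.82 to 3.81), *Fcgr1* had the largest change of the 9 genes in the edgeR fit of all mice. Its adjusted p was 0.743 (edgeR, Benjamini-Hochberg). The mean of its log2 CPM differed by 0.52, less than the 0.78 of *Cd14*, and without mouse 8 its log2 fold change was 0.40. Between 72.4% and 86.7% of its reads were assigned to the coding transcript *Fcgr1*-201, and the rest to *Fcgr1*-202, which is annotated as subject to nonsense-mediated decay.

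*Adgre1* encodes F4/80, the adhesion receptor that classically marks mouse macrophages, and one of the 2 most abundant of the 9 genes in TPM, with *Ccr2*. Its levels were 163, 299.7 and 155 CPM in mice 19, 23 and 24 and 128, 158 and 411 CPM in mice 5, 7 and 8. Mouse 8 was the highest and mouse 23 the second highest, while the other 4 mice lay close to each other. *Adgre1* thus varied least of the 9 between the lowest and the highest mouse, by 3.21-fold, and mouse 7, which was lowest in most of the other genes, was not low here. Its log2 fold change was 0.17 (SE 0.49, 95% interval -0.97 to 1.32, adjusted p = 0.957 by edgeR and Benjamini-Hochberg). The full-length transcript *Adgre1*-202 took between 78.9% and 88.2% of the reads in every mouse.

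The chemokine receptors differed widely in level. *Ccr2* encodes the receptor for CCL2 through which classical monocytes leave the marrow. It was measured at 151, 480.3 and 117 CPM in mice 19, 23 and 24 and at 318, 38.6 and 674 CPM in mice 5, 7 and 8. Mouse 7 was the lowest and mouse 8 the highest of all 6, 17.5-fold apart, and mouse 23 lay above mouse 5. The log2 fold change of *Ccr2* was 0.46 (SE 0.94, 95% interval -1.75 to 2.67, adjusted p = 0.928 by edgeR and Benjamini-Hochberg), and the mean of log2 CPM differed by -0.01, Cebpa-/p30 Tet2-/- minus Cebpa-/p30 Tet2+/+.

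*Cx3cr1*, the fractalkine receptor, followed a like order at a lower level. It was measured at 31.6, 74.7 and 12.5 CPM in mice 19, 23 and 24 and at 26.0, 2.44 and 202 CPM in mice 5, 7 and 8. Mice 7 and 8 were again the extremes, with 38 and 3720 reads and an 82.6-fold difference in CPM, and mouse 5 lay among the Cebpa-/p30 Tet2+/+ mice. Its log2 fold change of 0.95 (SE 1.3, 95% interval -2.10 to 4.01, adjusted p = 0.885 by edgeR and Benjamini-Hochberg) compares mean levels, which mouse 8 dominates. The mean of log2 CPM, in which each mouse weighs the same, differed by -0.39 in the other direction.

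The reads of the chemokine receptors were spread over several transcripts. *Ccr2*-202 held between 59.5% and 66.1% of the *Ccr2* reads, a narrow range over mice whose levels differed 17.5-fold. For *Cx3cr1*, *Cx3cr1*-202 held between 45.1% and 67.8% of the reads in 5 mice, and 0 in mouse 7, where *Cx3cr1*-201 held 90.2%. That share in mouse 7 rests on 38 reads in all.

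*C1qa*, *C1qb* and *C1qc* encode the chains that assemble into C1q, and their levels moved together over the mice. *C1qa* was measured at 9.69, 12.6 and 2.46 CPM in mice 19, 23 and 24 and at 17.9, 1.86 and 26.2 CPM in mice 5, 7 and 8. *C1qb* was measured at 15.1, 18.9 and 5.70 CPM in the first 3 mice and at 30.9, 3.21 and 66.6 CPM in the others. *C1qc* was measured at 8.43, 13.4 and 3.87 CPM in the first 3 mice and at 18.5, 1.54 and 39.1 CPM in the others. All 3 chains had the same order of mice, from mouse 8 through mice 5, 23, 19 and 24 down to mouse 7. The log2 fold changes were 0.89 (SE 0.91) for *C1qa*, 1.34 (SE 0.92) for *C1qb* and 1.2 (SE 0.96) for *C1qc*, with adjusted p of 0.847, 0.759 and 0.795 by edgeR and Benjamini-Hochberg.

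Summed over the 3 chains, C1q reached 33.2, 45.0 and 12.0 CPM in mice 19, 23 and 24 and 67.4, 6.62 and 132 CPM in mice 5, 7 and 8. Mice 5 and 8 lay above all Cebpa-/p30 Tet2+/+ mice and mouse 7 below them. The means were 68.6 ± 62.6 CPM (SD, n = 3) in Cebpa-/p30 Tet2-/- and 30.1 ± 16.7 CPM (SD, n = 3) in Cebpa-/p30 Tet2+/+ blasts (exact two-sided permutation test, p = 0.5). Without mouse 8 the difference of 38.6 CPM between these means was 6.95 CPM, and without mouse 7 it was 69.6 CPM. The proportions of the chains changed far less than their sum. In TPM, *C1qb* made up between 43.8% and 52.4% of the sum, *C1qa* between 20.6% and 29.9% and *C1qc* between 20.96% and 29.3%. The sum rests on 103 reads in mouse 7, 171 in mouse 24 and 2430 in mouse 8.

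*Vcan* encodes versican, a large chondroitin sulfate proteoglycan that binds hyaluronan and that monocytes express strongly. Its levels were 9.87, 176 and 8.10 CPM in mice 19, 23 and 24 and 261, 1.41 and 109 CPM in mice 5, 7 and 8. Mice 23, 5 and 8 were high and mice 19, 24 and 7 low, which puts both genotypes in both sets. This was the widest spread of the 9 genes, 184-fold over all mice and 21.7-fold within the Cebpa-/p30 Tet2+/+ mice, and its SD of log2 CPM within genotypes, 3.31, was larger than in 99.9% of the 13839 genes. With such a spread, the log2 fold change of 0.94 had an SE of 1.62 and a 95% interval from -2.87 to 4.74 (adjusted p = 0.913 by edgeR and Benjamini-Hochberg).

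Nearly all reads of *Vcan* came from a pair of its 9 annotated transcripts, *Vcan*-203 and the shorter *Vcan*-206. *Vcan*-203 held between 46.1% and 48.6% of them in Cebpa-/p30 Tet2+/+ mice and between 25.7% and 43.7% in Cebpa-/p30 Tet2-/- mice. *Vcan*-206 held between 46.8% and 50.5% in Cebpa-/p30 Tet2+/+ mice and between 51.8% and 74.3% in Cebpa-/p30 Tet2-/- mice. The genotypes did not overlap in either share, but the extreme values are those of mouse 7, with 22 reads of *Vcan* in all. An exact two-sided permutation test gave p = 0.1 for each share, the smallest that 3 mice against 3 allow, and 0.933 after Benjamini-Hochberg adjustment over the shares of 28 transcripts. *Vcan*-202 and *Vcan*-205 had no reads in any mouse.

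**Figure D2:**
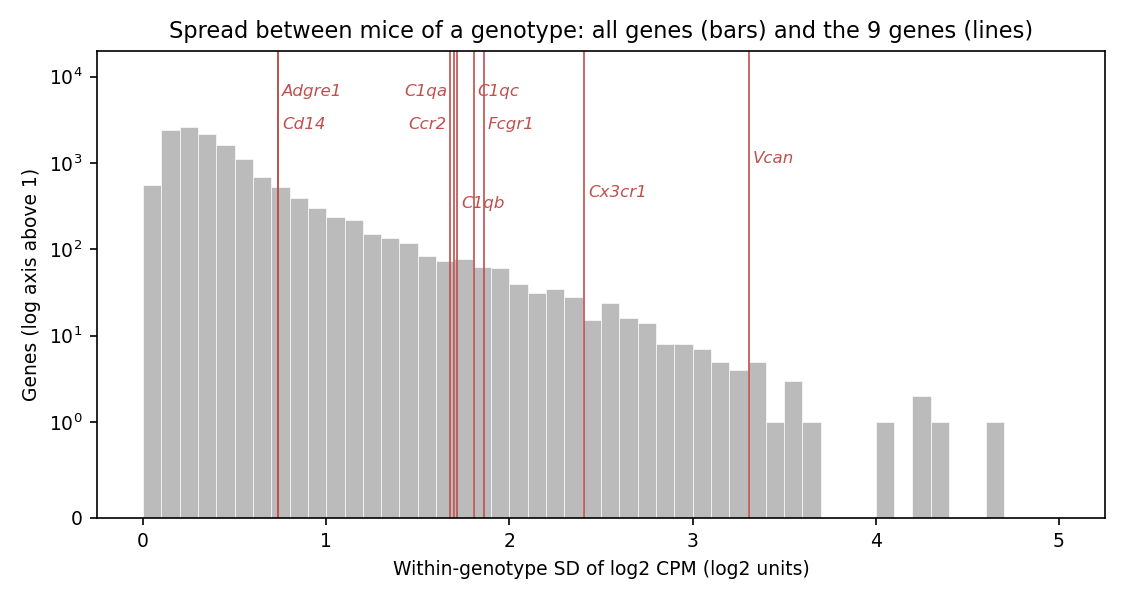
SD of log2 CPM within genotypes for the 13839 genes averaging 1 CPM or more, as bars of width 0.1 with the number of genes on a logarithmic axis, and for the 9 genes as red lines. *Cd14* and *Adgre1* lie together at 0.74, and the other 7 lie between 1.68 and 3.31, where all genes have a median of 0.36.

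The mice kept a like order from gene to gene. Mouse 8 was the highest of the 6 in 8 of the 9 genes, where 20.2% of all 13839 genes had that mouse on top, and the exception was *Vcan*, with mouse 5 on top. Mouse 7 was the lowest in 7 of the 9, where the background is 30.7%, the exceptions being *Cd14*, lowest in mouse 23, and *Adgre1*, lowest in mouse 5. Both held in 6 of the 9 genes and in 9.20% of all. Within the Cebpa-/p30 Tet2+/+ mice, mouse 23 was the highest in 8 of the 9 genes, where the background is 38.6%, and mouse 24 the lowest in 8, where the background is 36.5%. *Cd14* was the exception to both. These mice were singled out after the values had been seen, and in TPM, or with CPM scaled by library size only, mouse 8 was also on top in 8 genes and mouse 7 lowest in 7.

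All 9 log2 fold changes from edgeR were above 0, as were 55.7% of those of the 13839 genes averaging 1 CPM or more. Their median was 0.94, against 0.0518 over those 13839 genes and 0.00 over all 22170 genes tested. Of the 14 neutrophil genes 13 were above 0, with a median of 0.89. Since the same mice are high or low in nearly all of the 9 genes, these signs are not 9 separate observations. Without mouse 8 the median was 0.27, and the log2 fold changes of *Adgre1*, *Cx3cr1* and *Ccr2* turned to -0.52, -1.46 and -0.48. Without mouse 7 it was 1.51, and *Fcgr1*, *C1qb* and *C1qc* passed an unadjusted threshold of 0.05, at adjusted p of 0.404, 0.472 and 0.484 by edgeR and Benjamini-Hochberg. Without mouse 23 the median was 1.66, and without mouse 24 it was 0.53. The log2 fold change of *Vcan* was -0.24 without mouse 5 and 3.76 without mouse 23.

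**Figure D3:**
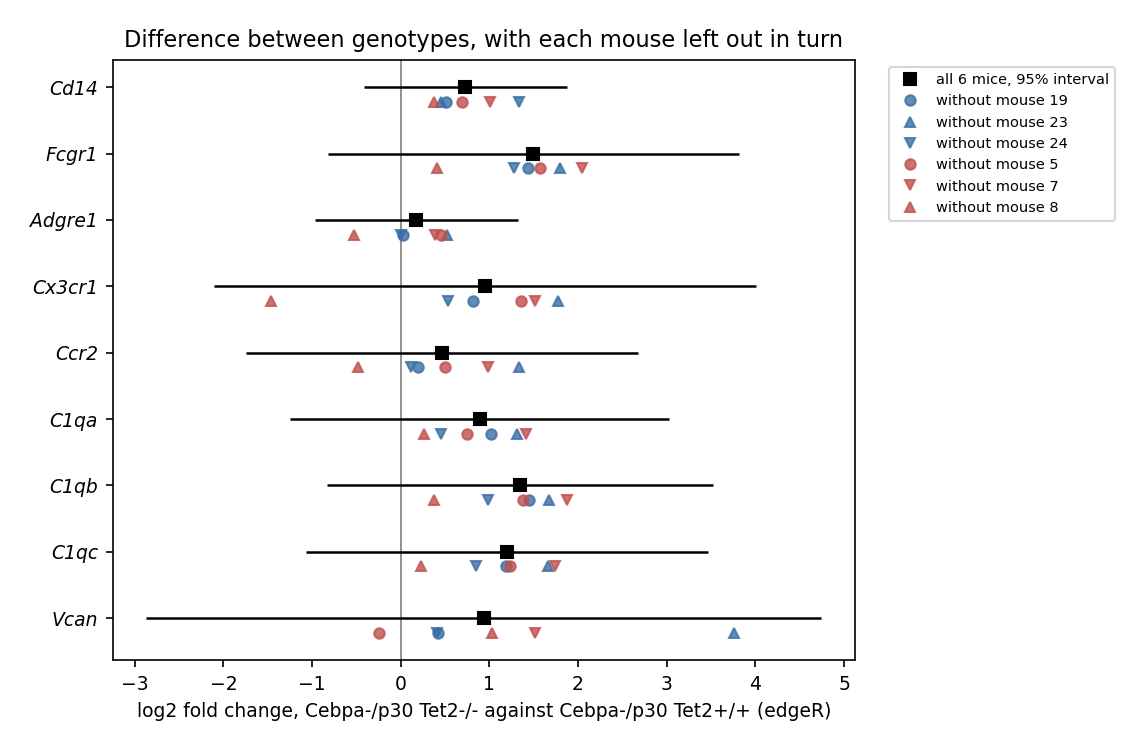
Log2 fold change between Cebpa-/p30 Tet2-/- and Cebpa-/p30 Tet2+/+ blasts from edgeR for each gene, with its 95% interval (black), and the same value with each mouse left out in turn (coloured symbols). Every interval spans 0, and leaving out mouse 8 moves *Adgre1*, *Cx3cr1* and *Ccr2* below 0.

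Some other genes had nearly the same profile over the 6 mice. Likeness was measured as the root mean square difference between mean-centred log2 CPM values over the 6 mice, among 11673 protein-coding genes averaging 1 CPM or more. The nearest gene to *C1qc* was *C1qb* at 0.17, followed by *Fcgr1* at 0.26 and *Prune2* at 0.26, and *C1qa* was 0.28 from *C1qb*. *C1qa* itself was nearest to *Il6st* at 0.13, a gene for the signal-transducing receptor gp130, and to *Stra6l* at 0.24, and *C1qb* had *Inppl1* at 0.29 as its last neighbour. *Fcgr1* was followed, after *C1qc*, by *Lgmn* at 0.32, which encodes the lysosomal protease legumain, and by *C1qb* at 0.35.

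For *Ccr2* the nearest genes were *Ctsc* at 0.14 and *Ctss* at 0.19, which encode the lysosomal proteases cathepsin C and cathepsin S, and *Stxbp6* at 0.21. *Ctss* was measured at 118, 349 and 126 CPM in mice 19, 23 and 24 and at 296, 31.7 and 527 CPM in mice 5, 7 and 8, with the same extremes as *Ccr2*. *Adgre1* was nearest to *Selenop* at 0.12, the gene of a secreted selenium transport protein, then to *G430095P16Rik* at 0.14 and *Elk3* at 0.16. *Cx3cr1* and *Vcan* had less close neighbours. *Cx3cr1* had *Nxpe4* at 0.46, *Dse* at 0.51 and the complement receptor gene *C3ar1* at 0.53. *Vcan* had *Ms4a6d* at 1.02, *F13a1*, which encodes a subunit of coagulation factor XIII, at 1.07 and *Dusp3* at 1.14. *Cd14* had *Gm20390* at 0.25, *Tnfsfm13* at 0.37 and *Fbxo36* at 0.37.

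The pathways in which the 9 genes act were read from lists of related genes, and 0 genes of any of the 20 lists had an adjusted p under 0.05 (edgeR, Benjamini-Hochberg). Of their 217 tested genes, 25 had an unadjusted p under 0.05, and DESeq2 on the same counts called 8, among them *Adgre5* and *Ly6c2*. Counts of genes at an unadjusted p under 0.05 follow, where 8.11% of all tested genes passed, 1135 lower and 664 higher in Cebpa-/p30 Tet2-/- blasts. Of 16 other genes of the LPS receptor pathway, 0 were lower and 3 higher, with a median log2 fold change of 0.14. *Tlr2*, which encodes the Toll-like receptor for lipoproteins, was measured at 53.2, 46.5 and 24.2 CPM in mice 19, 23 and 24 and at 67.2, 75.6 and 90.4 CPM in mice 5, 7 and 8, a log2 fold change of 0.91 (SE 0.30). The genotypes did not overlap for *Tlr2*, nor for the adaptor gene *Myd88*, with a log2 fold change of 0.46 (SE 0.16). *Irak3*, which encodes an inhibitory kinase of the pathway, had a log2 fold change of 0.79 (SE 0.32). These 3 had adjusted p of 0.544, 0.584 and 0.604 by edgeR and Benjamini-Hochberg. The 3 most abundant genes of that list were *Irak1*, *Lbp* and *Ly86*, at mean TPM of 101, 68.5 and 52.3, and their log2 fold changes were -0.04, 0.11 and -0.27.

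The Fc receptors next to *Fcgr1* were steadier. Of the other 4, 0 were lower and 0 higher at an unadjusted p under 0.05. *Fcer1g*, which encodes the shared signalling chain, was the most abundant at a mean TPM of 491, with levels between 298 and 345 CPM in Cebpa-/p30 Tet2+/+ mice and between 349 and 463 CPM in Cebpa-/p30 Tet2-/- mice. Its log2 fold change was 0.40 (SE 0.19, adjusted p = 0.646 by edgeR and Benjamini-Hochberg). *Fcgr3* and the inhibitory receptor gene *Fcgr2b* had log2 fold changes of 0.26 and 0.05. The least steady of the 4 was *Fcgr4*, at 20.2 to 66.2 CPM, with an SD of log2 CPM within genotypes of 0.57. Its log2 fold change was 0.87 (SE 0.38, adjusted p = 0.632 by edgeR and Benjamini-Hochberg). Mouse 7, at 15 reads of *Fcgr1*, had the highest *Fcer1g* and the highest *Fcgr3* of the 6 mice, 463 and 401 CPM.

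Of the 2 relatives of *Adgre1* that were tested, 1 was higher at an unadjusted p under 0.05 and 0 were lower. *Adgre5*, which encodes CD97 of leukocytes, was measured at 278, 282 and 271 CPM in mice 19, 23 and 24 and at 377, 412 and 426 CPM in mice 5, 7 and 8, without overlap, a log2 fold change of 0.55 (SE 0.16, adjusted p = 0.493 by edgeR and Benjamini-Hochberg). *Adgre4* ranged from 10.2 CPM in mouse 7 to 225 CPM in mouse 23 and had a log2 fold change of -1.35 (SE 0.90), which did not pass.

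Of 10 other chemokine and chemokine receptor genes of monocytes, 2 were lower and 1 higher at an unadjusted p under 0.05. *Ccl4* (-1.26, SE 0.39) and *Ccl3* (-1.08, SE 0.36), which encode inflammatory chemokines, had negative log2 fold changes, while their receptor gene *Ccr1* had a positive one (0.61, SE 0.23). Their adjusted p were 0.525, 0.545 and 0.599 by edgeR and Benjamini-Hochberg, and only *Ccl3* overlapped between genotypes. The most abundant chemokine genes were *Ccl9* and *Ccl6*, at mean TPM of 186 and 138, with log2 fold changes of 0.71 (SE 0.75) and 0.23 (SE 0.40). *Ccl9* was lowest in mouse 7 at 56.6 CPM and highest in mouse 8 at 528 CPM, the same extremes as *Ccr2* and *Cx3cr1*.

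Of 21 other complement genes tested, 1 was lower and 0 higher at an unadjusted p under 0.05. That was *C1s1*, which encodes the C1s protease that acts with C1q, at 0.386 to 0.597 CPM in Cebpa-/p30 Tet2-/- mice and 0.658 to 3.85 CPM in the others, a log2 fold change of -2.17 (SE 0.68, adjusted p = 0.526 by edgeR and Benjamini-Hochberg). *C3*, *Calr* and *Itgb2* were the most abundant, at mean TPM of 512, 372 and 305, with log2 fold changes of 1.17 (SE 0.65), -0.55 (SE 0.25) and 0.66 (SE 0.39). *C3*, the central complement component, was highest in mouse 7 at 2909 CPM and lowest in mouse 23 at 270.0 CPM, unlike the C1q chains. Of 12 other genes of versican and hyaluronan, 0 passed in either direction, and *Cd44*, the hyaluronan receptor gene, and *Hmmr* had log2 fold changes of 0.33 (SE 0.33) and 0.57 (SE 0.26).

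Marker lists of whole cell types placed the 9 genes among the mice. Averaged over genes as log2 CPM relative to the mean of the 6 mice, the 9 genes stood at -0.33, 0.76 and -0.95 in mice 19, 23 and 24 and at 0.88, -2.23 and 1.87 in mice 5, 7 and 8. The 24 other macrophage genes averaging 1 CPM or more stood at -0.13, 0.33 and -0.21 in the first 3 mice and at 0.49, -1.12 and 0.65 in the others. This is the same order of mice with a smaller range. In 14 of the 24, mouse 8 was highest, in 14 mouse 7 was lowest, and in 9 both held. The monocyte lists did not keep that order. The 15 classical monocyte genes stood at -0.34, 0.42 and -0.43 in mice 19, 23 and 24 and at 0.84, -0.88 and 0.40 in mice 5, 7 and 8, so that mouse 5 was on top, and mouse 8 was highest in 2 of the 15. The 12 non-classical monocyte genes stood at 0.28, 0.16 and -0.34 in the first 3 mice and at 0.03, -0.97 and 0.84 in the others, with mouse 8 highest in 6 of the 12 and mouse 19 second on average. Mouse 7 had the lowest average in both lists. *Csf1r*, which encodes the growth factor receptor of macrophages, reached 749 CPM in mouse 8 and 87.4 CPM in mouse 7, with the other 4 mice between 219 and 465 CPM, and was looked up after the lists had been read. Genes of tissue-resident macrophages, also picked out afterwards, had unequal levels. *Spic*, *Cd5l* and *Marco* had no more than 5.14, 1.14 and 5.63 CPM and *Timd4* was too low to test. The mannose receptor gene *Mrc1* had 4.82 to 54.8 CPM, and the apolipoprotein gene *Apoe* 121 to 624 CPM, both with mouse 7 lowest and mouse 8 highest. Some of these genes did not follow that order of mice. The iron exporter gene *Slc40a1* had 109.6 CPM in mouse 24, 56.8 CPM in mouse 7 and 1.79 CPM in mouse 8, its lowest. *Vcam1*, which resident macrophages of the marrow express, was also lowest in mouse 8, at 0.977 CPM, with 72.3 CPM in mouse 5 and 66.7 CPM in mouse 24. *Spic* had 0.76 CPM in mouse 8 and 5.14 CPM in mouse 23.

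Of the 25 macrophage genes tested, 0 were lower and 2 higher at an unadjusted p under 0.05. They were *Hmox1*, which encodes the heme-degrading enzyme heme oxygenase, with a log2 fold change of 1.17 (SE 0.44), and *Lgals3*, which encodes galectin-3, with 0.83 (SE 0.32). Mouse 7 was not low in *Lgals3*, at 413 CPM against 215 to 334 CPM in the Cebpa-/p30 Tet2+/+ mice. Among 15 genes of classical monocytes 1 was higher, *Ly6c2*, at 1623, 1428 and 1049 CPM in mice 19, 23 and 24 and at 2993, 2124 and 2495 CPM in mice 5, 7 and 8 (log2 fold change 0.89, SE 0.27). Among 12 genes of non-classical monocytes 1 was higher, *Treml4* (log2 fold change 0.53, SE 0.19). These 4 genes had adjusted p of 0.598, 0.604, 0.512 and 0.584 by edgeR and Benjamini-Hochberg. The genotypes did not overlap for *Lgals3*, *Ly6c2* and *Treml4*, where 16.0% of the 13839 genes did not overlap. These genes were named for their small unadjusted p, which favours a lack of overlap, so no contrast with the 9 genes is drawn.

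Among 20 transcription factors of monocytes and macrophages, 2 were lower and 0 higher at an unadjusted p under 0.05. *Id2* had a log2 fold change of -0.69 (SE 0.26) and *Runx1* of -0.40 (SE 0.16), with adjusted p of 0.591 and 0.604 by edgeR and Benjamini-Hochberg. Of the factors of the monocyte lineage, chosen after their values had been seen, *Klf4* had 55.6, 130 and 13.4 CPM in mice 19, 23 and 24 and 51.1, 18.0 and 109 CPM in mice 5, 7 and 8. Thus *Klf4* was lowest in mouse 24 and highest in mouse 23, while *Irf8* was lowest in mouse 7 and highest in mouse 8. *Spi1*, which encodes PU.1, was the highest in mouse 7 at 511 CPM and lay between 291 and 338 CPM in the other 5.

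The neutrophil genes did not follow that order. The 14 of them stood at 0.52, -1.61 and 0.01 in mice 19, 23 and 24 and at 0.48, 1.39 and -0.79 in mice 5, 7 and 8, on the same centred log2 scale. Mouse 7, lowest for the 9 genes, was highest in 12 of the 14, and mice 23 and 8, which were high for the 9 genes, were the lowest for the list. Mouse 5 was above average in both. The summed neutrophil level lay between 12497 and 62466 CPM in Cebpa-/p30 Tet2+/+ mice and between 27457 and 125569 CPM in Cebpa-/p30 Tet2-/- mice, and none of the 14 genes was at 0, with *Ly6g* between 33.5 and 522 CPM. Of these genes, 0 passed an unadjusted p of 0.05 in either direction. The 6 genes of primary granules, made earlier in granulocyte development, stayed between -0.38 and 0.42 over the mice. The part of the neutrophil genes, and of the number of monocytes or macrophages in the sorted cells, in the levels of the 9 genes was not tested.

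**Figure D4:**
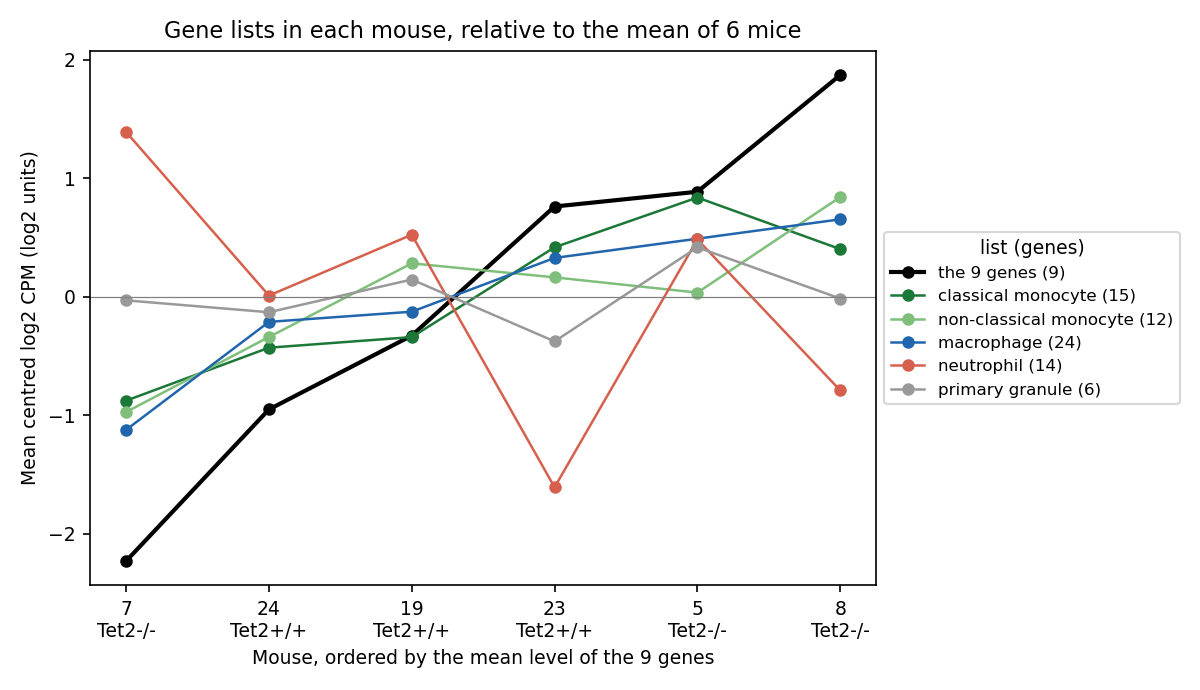
Mean centred log2 CPM of the 9 genes and of 5 marker lists in each mouse, with the mice ordered by the 9 genes and the number of genes of each list in the key. The macrophage line rises with the 9 genes from mouse 7 to mouse 8, while the neutrophil line is highest in mouse 7 at 1.39 and lowest in mouse 23 at -1.61.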

How the data were processed

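RNA from sorted AML blasts of 6 mice was sequenced after TruSeq v2 preparation, which does not mark strand. The authors quantified the reads with Salmon 0.12.0 against Ensembl transcripts of GRCm38 and deposited, for 136288 transcripts, an estimated count of reads (not normalized) and a TPM value (scaled by effective length). Both were summed here to GENCODE M21 genes with Python 3.11.15 and pandas 2.3.3, leaving out 112 transcripts without a gene, and the estimated counts were rounded. Genes with at least 10 library-size-normalized counts in all were tested in R 4.3.3 with edgeR 4.0.16 (quasi-likelihood test, TMM factors, no covariates, Benjamini-Hochberg adjustment over 22170 genes, threshold 0.05). The biological coefficient of variation was 43.6%, and the scripts were tested on simulated data. Centred log2 CPM used a prior count of 2. Exact tests used SciPy 1.17.1, and transcripts were compared with BLAST+ 2.17.0.

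Alternatives were DESeq2 1.42.0, length-scaled counts made from TPM (with DESeq2, the study's own choice), no filter, filterByExpr, other scalings, robust estimation, limma 3.58.1 on log2 TPM with pseudocounts of 1 and 0.1, and each mouse left out. The 9 genes and the lists were chosen with earlier results of these data known. Named from each list were at most the 4 genes with the smallest unadjusted p under 0.05 and a mean of at least 1 CPM, from pathway lists the 3 most abundant by TPM, and for each of the 9 genes its 3 nearest genes. No batch is given for the samples.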

Additional observations from a re-analysis of the deposited data

How the results depend on the processing

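Read numbers limit the precision in mouse 7, where 6 of the 9 genes rest on 15 to 50 reads, and in mouse 24, where *C1qa*, *Fcgr1* and *C1qc* rest on 35, 54 and 55. None of 144 fits of the 9 genes over 16 settings passed an adjusted p of 0.05, with a smallest adjusted p of 0.404 (edgeR, without mouse 7), and 10 of the 144 changed sign. The median log2 fold change of the 9 was 0.46 with limma on log2(TPM + 1) and 0.40 on log2(TPM + 0.1), against 0.94 with edgeR. With limma on log2(TPM + 1) the log2 fold changes of *Adgre1*, *Cx3cr1* and *Ccr2* were -0.13, -0.0917 and -0.0578, and on log2(TPM + 0.1) they were -0.13, -0.47 and -0.0852. Without mouse 8 they were -0.52, -1.46 and -0.48, and without mouse 5 that of *Vcan* was -0.24. The cause was not tested. Leaving out each mouse once, log2 fold changes ranged from 0.38 to 1.34 for *Cd14*, 0.40 to 2.04 for *Fcgr1*, -0.52 to 0.53 for *Adgre1*, -1.46 to 1.78 for *Cx3cr1*, -0.48 to 1.34 for *Ccr2*, 0.27 to 1.41 for *C1qa*, 0.37 to 1.88 for *C1qb*, 0.23 to 1.74 for *C1qc* and -0.24 to 3.76 for *Vcan*. Between 0 and 3 of the 9 then passed an unadjusted p of 0.05, with 1, *Cd14*, without mouse 24 and 3 without mouse 7. With counts scaled by library size alone, the median over all genes was -0.17 on the log2 scale and that of the 9 genes 0.77. Over all genes, edgeR called 10 lower and 0 higher, and with each mouse left out between 0 and 7 lower and 0 higher. DESeq2 called 325 lower and 59 higher on the same counts and 325 and 64 on length-scaled counts, edgeR on length-scaled counts 5 lower, and edgeR without a filter 62 lower and 4 higher. Higher calls numbered 1 with filterByExpr, 1 with RLE factors and 4 with limma at either pseudocount. The difference in summed C1q ranged from 6.95 to 69.6 CPM. No paired analysis was possible because the mouse numbers of the genotypes do not overlap and the labels pair no samples.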

Other observations

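Marker lists of other blood cells held no gene with an adjusted p under 0.05 (edgeR, Benjamini-Hochberg), and the genes below are those at an unadjusted p under 0.05. Of 13 genes of conventional dendritic cells, which share precursors with monocytes, 1 was lower, *Cd209a*, at 56.1 CPM in mouse 23 and between 0.772 and 11.8 CPM in the other 5 mice (log2 fold change -3.11, SE 1.15). Of 7 genes of plasmacytoid dendritic cells 1 was lower, *Siglech* (-2.42, SE 0.42), at no more than 2.41 CPM in any mouse, and of 10 T and NK cell genes *Ncr1* was lower (-2.12, SE 0.49). Of 6 basophil and mast cell genes 3 were lower, *Gata2* (-2.1, SE 0.3), *Cpa3* (-2.66, SE 0.55) and *Cd200r3* (-2.03, SE 0.59), without overlap between genotypes. The others did not pass, with *Mcpt8* at -0.99 (SE 0.55), *Ms4a2* at 0.48 (SE 0.53) and *Hdc* at 0.996 (SE 0.67). Lower *Gata2* in TET2-deficient blasts is the study's own result, and which cells these reads came from was not tested. *Cpa3*, a mast cell protease gene, was lowest in mouse 8 at 16.8 CPM, the mouse highest for 8 of the 9 genes described above. Among 8 eosinophil genes 2 were lower, *Il5ra* (-2.26, SE 0.51) and *Ccr3*, the latter at a mean of 0.392 CPM, and of 7 megakaryocyte and platelet genes *Itga2b* was lower (-1.34, SE 0.44). Of 6 primary granule genes 1 was higher, *Ms4a3* (0.69, SE 0.24). Of 8 B cell genes 0 passed, and of 7 erythroid genes 1 was lower, *Alas2*, at a mean of 0.161 CPM. With DESeq2 on the same counts, *Siglech*, *Ncr1*, *Gata2*, *Cpa3*, *Cd200r3* and *Il5ra* were past an adjusted p of 0.05. *Ccr3* and *Alas2* were named after their values had been seen.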
